A study of Homo sapiens with 24 samples.

Results

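The 10 SOX genes SOX2, SOX4, SOX5, SOX6, SOX8, SOX10, SOX11, SOX12, SOX13 and SOX17 were described by their promoter chromatin in PANC-1, a human pancreatic ductal carcinoma line. They were chosen by name, as members of the SOX family other than SOX9, from the 20163 protein-coding genes of the annotation, and 9 further SOX genes served for comparison. For each gene, a window of 5 kb to each side of every annotated transcription start site (TSS) was taken, with overlapping windows merged, and the base pairs (bp) covered by peaks were measured in each of 18 peak lists. ChIP-seq (chromatin immunoprecipitation and sequencing) had been made for H3K4me3, H3K27ac and H3K27me3. The 3 groups, with 2 libraries each per modification, were cells transfected with a control siRNA (siControl), the same with TGFβ at 10 ng/ml for 48 h (siControl+TGFβ), and cells transfected with an siRNA against PHF13 with the same TGFβ treatment (siPHF13+TGFβ). Values of 6 libraries are given in this order of groups, which are also called cells without TGFβ, with TGFβ, and with TGFβ after PHF13 depletion, and replicate 1 comes before replicate 2. All are samples of a single cell line, so the spread between libraries is not a spread between people, and the labels do not say whether replicates were separate cultures. The depletion of PHF13 could not be checked here, because an siRNA acts on the transcript and the lists hold histone modifications.

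Peak lists differed in length within groups, and replicate 1 of siPHF13+TGFβ had the shortest list for every modification, with only 6004 H3K27ac peaks against 19413 to 36104 in the other lists. Changes with depletion in the TSS windows are therefore also given without it. The group names are those of the labels. Inside the lists, however, peaks labelled siControl+TGFβ are named 3AT and peaks labelled siPHF13+TGFβ are named NCT, which is the study's own abbreviation for siControl+TGFβ. If the names are right, these groups are exchanged, and the files do not settle which is right. Every direction that involves either group, TGFβ against siControl included, holds only if the labels are right. With the labels exchanged, each change with depletion turns its sign, and the median H3K4me3 change of the 10 genes with TGFβ is −0.08 in place of 0.19. The cell type was checked by markers. Of the epithelial markers, KRT8 and KRT18 had H3K4me3 and H3K27ac peaks in 6 of 6 lists and no H3K27me3, KRT19 and KRT7 had H3K27ac in 5 lists, with H3K4me3 in 6 and 3, and EPCAM had all 3 modifications in 6 lists. The mesenchymal genes VIM and CDH2 had H3K4me3 in 6 lists, H3K27ac in 6 and 5, and no H3K27me3. The endocrine genes INS, GCG and CHGA and the leukocyte genes PTPRC, CD3E and SPI1 had no H3K27ac peak and had H3K27me3 in 3 to 6 lists. The acinar genes were mixed, with H3K27ac in 0 lists at PTF1A and CPA1 and in 5 at CELA3A, and H3K27me3 in 6, 1 and 0. Of the neural crest and melanocyte genes, MITF and PMEL had H3K27ac in 4 and 6 lists and TYR in 0.

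SOX proteins are transcription factors that bind DNA through a high-mobility-group box and are sorted into subgroups by sequence. SOX2 (SOXB1) maintains pluripotent and foregut progenitor cells. SOX4, SOX11 and SOX12 (SOXC) act in progenitors of many tissues, and SOX4 is known as a gene induced by TGFβ in epithelial cells. SOX5, SOX6 and SOX13 (SOXD) lack an activation domain of their own, and SOX5 and SOX6 assist SOX9 in cartilage. SOX8 and SOX10 (SOXE) are known from the neural crest and from glia, and SOX17 (SOXF) from endoderm and blood vessels. H3K4me3 marks promoters, H3K27ac marks active promoters and enhancers, and H3K27me3 is laid down by Polycomb complexes over silent developmental genes. Promoters that carry H3K4me3 and H3K27me3 together are called bivalent, a state first described for developmental regulators in stem cells.

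The promoters of contrasting members are shown first, because the modifications divide the genes at these sites. RefSeq promoters (GRCh38.p14) of 300 bases, from 250 before to 50 after a start, were on hand for 6 of the 10 genes, namely SOX2, SOX4, SOX5, SOX6, SOX12 and SOX13. Each of their 10 entries was found once in GRCh37 (hg19) by exact match, and the positions given are of that build. CpG dinucleotides are in capitals. SOX4 (chr6:21593732-21594031, plus strand) and SOX12 (chr20:305946-306245, plus strand) carried H3K27ac nearby and no H3K27me3. SOX2 (chr3:181429463-181429762, plus strand) and SOX5 (chr12:24715376-24715675, minus strand) carried H3K4me3 with H3K27me3. SOX6 is shown, and counted below, only at the most upstream of its 5 RefSeq entries (chr11:16759975-16760274, minus strand). Its further entries had 0 to 2 CpG.
SOX4: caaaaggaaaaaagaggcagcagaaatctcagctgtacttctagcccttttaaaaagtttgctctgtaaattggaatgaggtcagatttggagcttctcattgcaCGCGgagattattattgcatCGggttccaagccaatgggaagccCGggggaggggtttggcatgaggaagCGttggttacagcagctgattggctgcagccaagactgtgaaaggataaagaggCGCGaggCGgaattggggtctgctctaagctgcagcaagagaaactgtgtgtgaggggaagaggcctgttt
SOX12: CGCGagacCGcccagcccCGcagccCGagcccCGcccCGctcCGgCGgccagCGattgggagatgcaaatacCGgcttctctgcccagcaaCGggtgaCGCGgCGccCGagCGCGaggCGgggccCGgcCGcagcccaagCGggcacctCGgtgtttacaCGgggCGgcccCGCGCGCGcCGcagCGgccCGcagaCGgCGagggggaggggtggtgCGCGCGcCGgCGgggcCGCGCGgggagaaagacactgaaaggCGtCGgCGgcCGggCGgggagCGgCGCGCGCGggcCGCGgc
SOX2: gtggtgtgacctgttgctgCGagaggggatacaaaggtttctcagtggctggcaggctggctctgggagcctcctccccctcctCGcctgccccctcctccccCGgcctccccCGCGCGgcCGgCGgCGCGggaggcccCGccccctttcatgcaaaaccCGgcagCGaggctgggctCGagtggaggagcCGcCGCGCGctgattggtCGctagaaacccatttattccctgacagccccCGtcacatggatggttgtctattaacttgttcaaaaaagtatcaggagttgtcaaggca
SOX5: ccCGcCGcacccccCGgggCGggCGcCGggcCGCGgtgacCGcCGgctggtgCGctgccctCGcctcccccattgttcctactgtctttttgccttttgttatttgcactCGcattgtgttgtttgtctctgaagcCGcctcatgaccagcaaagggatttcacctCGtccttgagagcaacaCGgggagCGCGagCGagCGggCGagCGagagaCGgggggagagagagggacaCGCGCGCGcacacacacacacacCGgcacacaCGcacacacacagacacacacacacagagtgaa
SOX6: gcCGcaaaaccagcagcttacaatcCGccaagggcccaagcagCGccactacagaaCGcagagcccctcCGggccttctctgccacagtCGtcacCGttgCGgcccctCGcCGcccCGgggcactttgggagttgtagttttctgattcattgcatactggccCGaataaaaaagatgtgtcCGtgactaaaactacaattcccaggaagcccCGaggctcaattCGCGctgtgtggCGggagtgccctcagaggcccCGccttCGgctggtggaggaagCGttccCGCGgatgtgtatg
SOX12 had 54 CpG in its 300 bases, as many as or more than 99.6% of the 35116 RefSeq promoters, whose median was 14. SOX5 had 29, SOX6 had 22, SOX2 had 20, SOX13 had 15 and SOX4 had 8. SOX12 and SOX4, which share their modifications, lay at opposite ends of this order. The SOX core motif ACAAT, searched on both strands, was present in 27.4% of all promoters. It had 2 matches each in the promoters of SOX5 and SOX6 and 0 in those of SOX2, SOX4, SOX12 and SOX13. The AP-1 motif TGANTCA (7.71% of promoters) matched once, in SOX6. The TEAD motif GGAATG (4928 of 35116) matched once, in SOX4. The SMAD motif CAGACA (16.9%) matched once, in SOX5. A match is a description of the sequence and not a measured binding site.

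The same 300 bases were covered to different extents. At SOX5, peaks of H3K4me3 and of H3K27me3 each covered all 300 bases in 6 of 6 lists. At SOX2, H3K4me3 covered all of them in 6 lists and H3K27me3 in 5, the exception being siPHF13+TGFβ replicate 1. SOX6, which carried H3K27ac, was also wholly under H3K4me3 in 6 lists, and under H3K27ac in 5 lists. At SOX13, H3K4me3 covered all 300 bases in 3 lists. At SOX4 and SOX12, no list covered the whole promoter with any modification. H3K4me3 reached 10 and 3 bases of the SOX4 promoter in the siControl lists and 0 in the other 4. At SOX12, H3K4me3 reached 34 bases in siControl replicate 2, 19 in siPHF13+TGFβ replicate 2 and 0 in the other 4 lists. The 5′ start itself was under no H3K4me3 peak in 6 of 6 lists at SOX4 and SOX12. It was under one in 6 of 6 lists at SOX2, SOX5, SOX6, SOX8 and SOX17, and at SOX13 in all but siPHF13+TGFβ replicate 1. H3K4me3 lay to both sides of the start at SOX4 and SOX12, but upstream of SOX4 only near the edge of the window. H3K27ac crossed the SOX12 start in siControl+TGFβ replicate 1 and siPHF13+TGFβ replicate 2.

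To describe the state of each gene, the lists with a peak in its window were counted. H3K4me3 was present in all 6 lists at 8 of the 10 genes, against 73.3% of protein-coding genes. H3K4me3 and H3K27me3 were both present in all 6 lists at 5 of 10, SOX2, SOX5, SOX6, SOX8 and SOX17, against 3025 of the 20163 protein-coding genes. At 3 of these, SOX2, SOX5 and SOX17, no list had an H3K27ac peak, against 7.27%. SOX4 and SOX12 had H3K4me3 in 6 lists, H3K27ac in at least 4 and H3K27me3 in 0, as did 40.1% of protein-coding genes. SOX13 had H3K4me3 in 6 lists and H3K27ac in 4. SOX10 had a peak in 1 of 18 lists, and SOX11 in 0 of 18, as did 7.22% of protein-coding genes. Of the 9 remaining SOX genes, SOX14, SOX18 and SOX30 had H3K4me3 and H3K27me3 in all lists, SOX9 and SOX21 matched the state of SOX4 and SOX12, and SOX1 and SOX7 had no peak. These counts describe the genes and were not tested. They were unchanged with windows of 1 kb for the 5 genes with both modifications and for the 2 without H3K4me3. A list holds only peaks past a threshold, so the absence of a peak is not the absence of the modification.

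**Figure D1:**
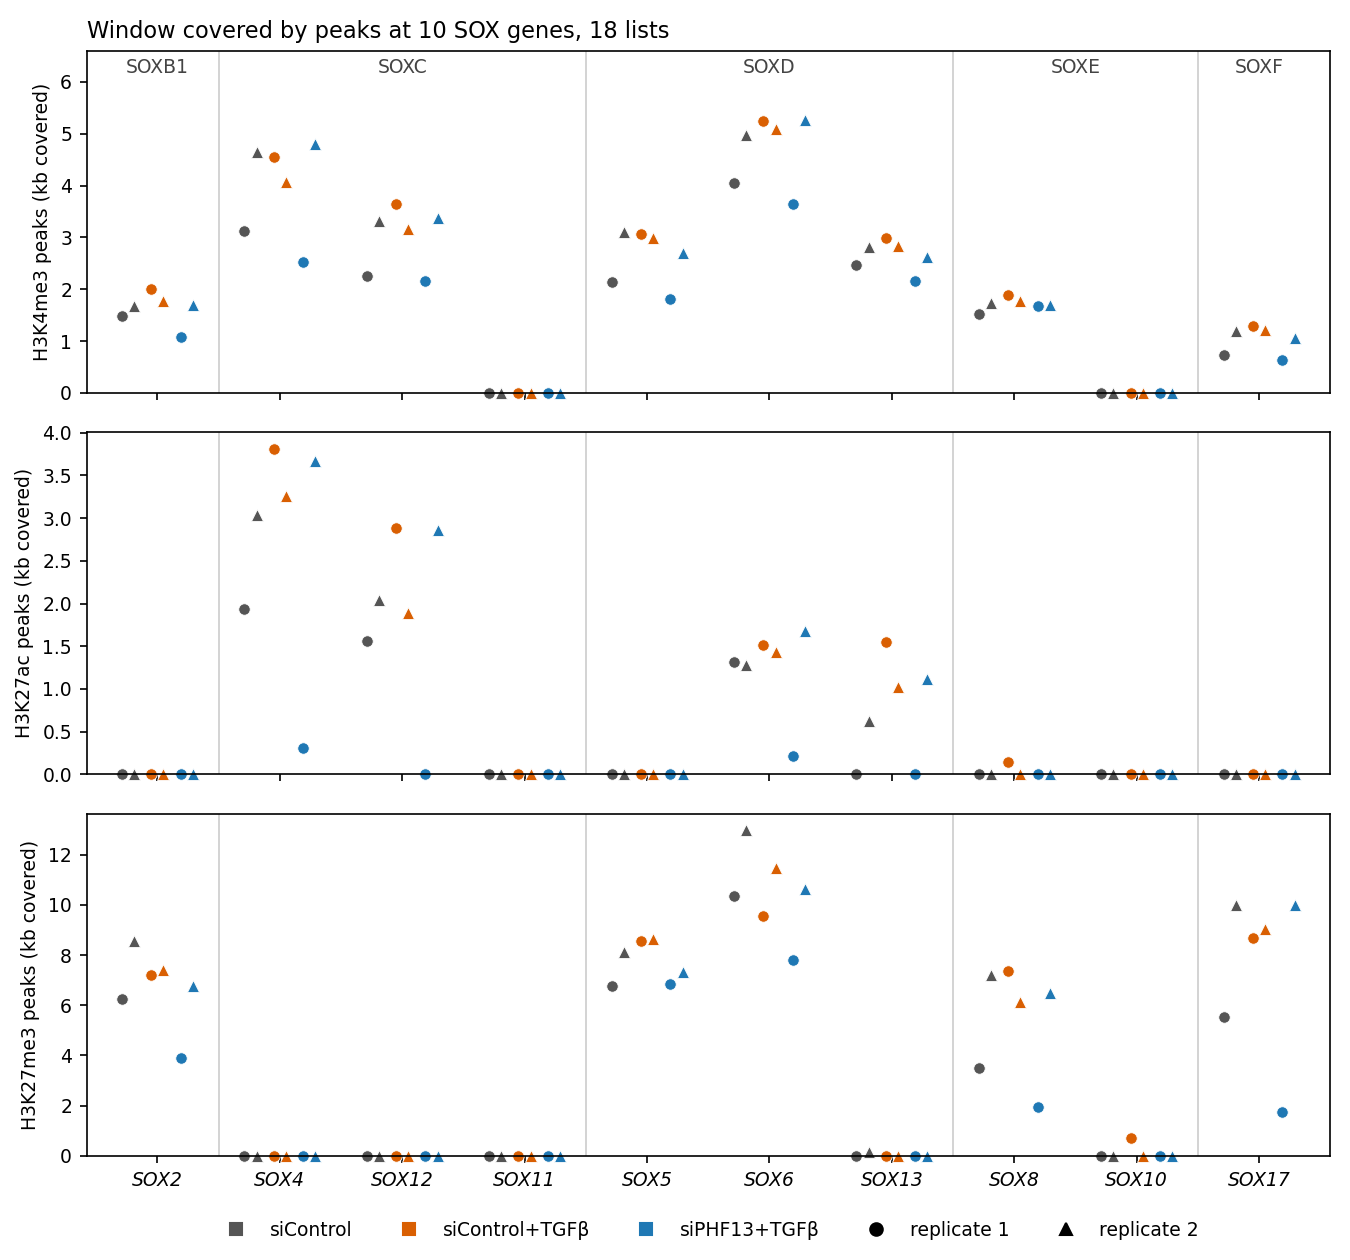
Covered length (kb, y axes) in the TSS windows of the 10 SOX genes (x axis, by subgroup) in each library, for H3K4me3 (top), H3K27ac (middle) and H3K27me3 (bottom). Points are single libraries, coloured by group, with circles for replicate 1 and triangles for replicate 2. H3K27ac is at 0 in all lists for SOX2, SOX5, SOX10, SOX11 and SOX17, and H3K27me3 at 0 for SOX4, SOX11 and SOX12.

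Among the SOXC genes, SOX4 lies on chromosome 6 (21593982 to 21598850, plus strand) and SOX12 on chromosome 20 (306196 to 310868, plus strand), each with a single start. H3K4me3 covered 3119 and 4641 bp of the SOX4 window without TGFβ, 4556 and 4063 bp with TGFβ, and 2522 and 4802 bp with TGFβ after PHF13 depletion (replicates 1 and 2). The lowest and the highest value were both from siPHF13+TGFβ, so the groups overlapped. H3K27ac covered 1939 and 3039 bp without TGFβ, 3814 and 3258 bp with TGFβ, and 312 and 3666 bp with TGFβ after PHF13 depletion. Both siControl+TGFβ lists lay above both siControl lists, as they did at 56.6% of the genes tested for H3K27ac, while of the siPHF13+TGFβ lists, replicate 1 was the lowest of all 6 and replicate 2 lay between the siControl+TGFβ values. The window also holds the start of a lncRNA (ENSG00000283480), and peaks of H3K4me3 and H3K27ac lay in 2 blocks, a first downstream of the SOX4 start and a second at the upstream edge of the window.

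At SOX12, H3K4me3 covered 2253 and 3319 bp without TGFβ, 3634 and 3154 bp with TGFβ, and 2158 and 3375 bp with TGFβ after PHF13 depletion. H3K27ac spanned 1557 and 2040, then 2884 and 1893, then 0 and 2866 bp in the same order. The groups overlapped for both modifications. The start of the antisense gene NRSN2-AS1 lies in the same window, and peaks do not tell on which strand transcription occurs. Of the H3K4me3 length at SOX4, H3K27ac covered between 35.8% and 73.7% in 5 lists and 2.82% in siPHF13+TGFβ replicate 1. At SOX12 the share was 58.6% to 81.4% in 5 lists and 0% in that library. SOX11 (chromosome 2, 5832516 to 5841517, plus strand), the third SOXC gene, had no peak of any modification in its window, although the starts of 3 lncRNAs, LINC01248 among them, lie inside it.

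SOX2 (chromosome 3, 181429713 to 181432224, plus strand) lies within the lncRNA gene SOX2-OT. H3K4me3 covered 1479 and 1682 bp of its window without TGFβ, 2003 and 1772 bp with TGFβ, and 1080 and 1704 bp with TGFβ after PHF13 depletion. H3K27me3 spanned 6266 and 8556, then 7224 and 7422, then 3909 and 6765 bp in the same order. Every bp of H3K4me3 lay under H3K27me3 in 5 of 6 lists, and 24.6% of it in siPHF13+TGFβ replicate 1, whose H3K27me3 list was the shortest. SOX17 (chromosome 8, 55370495 to 55373452, plus strand) showed the same arrangement with no other gene start in its window. H3K4me3 spanned 730 and 1189, then 1289 and 1209, then 638 and 1060 bp, and H3K27me3 spanned 5539 and 10001, then 8668 and 9019, then 1733 and 10001 bp. The value of 10001 bp is the whole window. All of the H3K4me3 at SOX17 lay under H3K27me3 in 5 of 6 lists, and 10.5% in siPHF13+TGFβ replicate 1. The single-start windows of SOX2, SOX4, SOX12 and SOX17 have the same length of 10001 bp. In 6 of 6 libraries, H3K4me3 covered more of the SOX4 and SOX12 windows than of the SOX2 and SOX17 windows.

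The SOXE genes differed from each other. SOX8 (chromosome 16, 1031770 to 1036979, plus strand) shares its window with the starts of LMF1 and of the lncRNA CEROX1. H3K4me3 covered 1526 and 1741 bp without TGFβ, 1881 and 1777 bp with TGFβ, and 1677 and 1703 bp with TGFβ after PHF13 depletion, the narrowest spread of any member with H3K4me3. H3K27me3 spanned 3493 and 7197, then 7379 and 6115, then 1968 and 6476 bp. Between 61.7% and 100% of the H3K4me3 length lay under H3K27me3 in 5 lists, and 24.6% in siPHF13+TGFβ replicate 1. An H3K27ac peak of 150 bp was present in siControl+TGFβ replicate 1 alone. The window of SOX10 (chromosome 22, 38366693 to 38383429, minus strand) also holds a start of POLR2F. It had no H3K4me3 or H3K27ac peak, and its 714 bp of H3K27me3 came from siControl+TGFβ replicate 1 alone.

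The SOXD genes are long and have several starts, so each start window was read separately. SOX6 (chromosome 11, 15987995 to 16761138, minus strand) had peaks of H3K4me3 at 2 of its 11 windows, and these carried different second modifications. At the 5′ start, H3K27ac covered 1316 and 1279 bp without TGFβ, 1517 and 1435 bp with TGFβ, and 212 and 1682 bp with TGFβ after PHF13 depletion. H3K27me3 in that window covered 299 and 1609 bp in the siControl lists and 0 bp in the other 4, and none of it overlapped H3K4me3. This window also holds the start of the protein-coding gene C11orf58, so its peaks cannot be assigned to SOX6 alone. At the second start, 131864 bp into the gene, no list had H3K27ac. H3K27me3 covered 10056 and 10756 bp there without TGFβ, 9569 and 11469 bp with TGFβ, and 7815 and 10640 bp with TGFβ after PHF13 depletion. The H3K4me3 at that start (1659 to 3080 bp) lay wholly under H3K27me3 in 5 of 6 lists and for 67.3% in siPHF13+TGFβ replicate 1. SOX6 as counted over all starts is therefore a sum of 2 unlike windows. One has H3K27ac and is shared with C11orf58, and the other has H3K4me3 peaks under H3K27me3 peaks. Overlap of peaks from separate libraries does not tell whether both modifications lie on the same chromatin.

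SOX5 (chromosome 12, 23682438 to 24715478, minus strand) had H3K4me3 in all 6 lists at 1 of its 7 windows, that of the 5′ start. H3K4me3 covered 1869 and 2146 bp there without TGFβ, 2240 and 2458 bp with TGFβ, and 1814 and 1977 bp with TGFβ after PHF13 depletion. It lay wholly under H3K27me3 in 5 lists and for 82.6% in siPHF13+TGFβ replicate 1. A further window, 611512 bp downstream with 7 starts, had 262 to 953 bp of H3K4me3 in 5 lists and 361 to 1743 bp of H3K27me3 in 4. SOX13 (chromosome 1, 204042243 to 204096871, plus strand) stood apart from both, with H3K4me3 of 2459 and 2807 bp, 2982 and 2831 bp, and 2157 and 2619 bp, and with H3K27me3 in siControl replicate 2 alone (163 bp). Its H3K27ac was 0 and 622 bp without TGFβ, 1554 and 1018 bp with TGFβ, and 0 and 1112 bp with TGFβ after PHF13 depletion. Both siControl+TGFβ lists were above both siControl lists, as they were at 56.6% of the genes tested for H3K27ac.

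**Figure D2:**
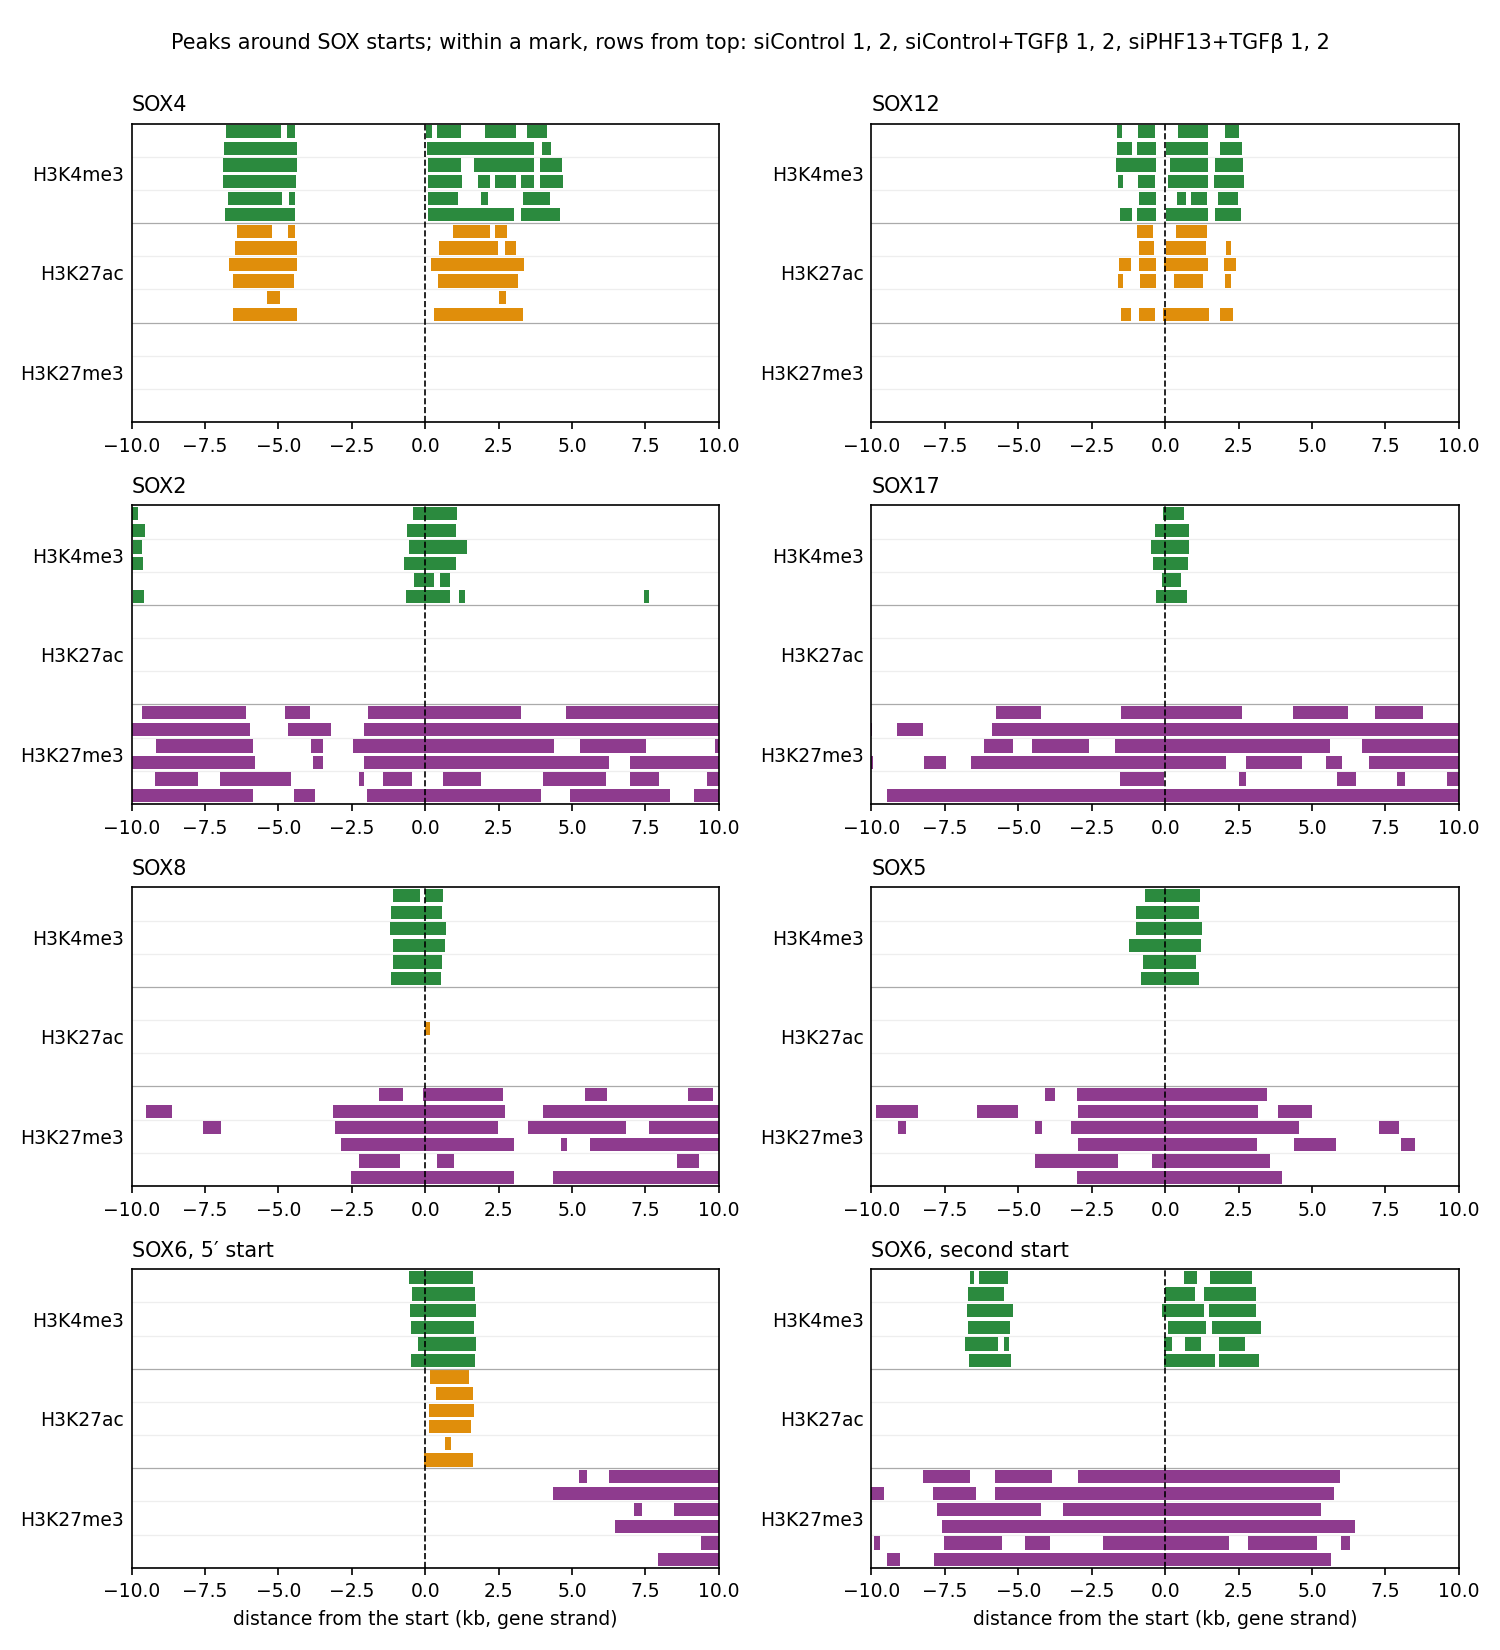
Peaks around 8 SOX starts (x axis, distance in kb along the gene's strand; the dashed line is the start). Each row of a panel is a library, and colours separate H3K4me3 (green), H3K27ac (orange) and H3K27me3 (purple). H3K4me3 crosses the start under H3K27me3 at SOX2, SOX17, SOX8 and SOX5, except that siPHF13+TGFβ replicate 1 has no H3K27me3 over the starts of SOX2, SOX17 and SOX8. It flanks the start at SOX12, while at SOX4 the upstream block lies apart from the start, at the edge of the TSS window. At SOX6, H3K4me3 lies with H3K27ac at the 5′ start, whose window also holds the C11orf58 start, and with H3K27me3 at the second start.

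The strength of the peaks was read as the rank of the strongest peak at a gene within its own list by −log10 q, where a low percentage is a strong peak. The strongest H3K4me3 peak ranked within the top 7.03% to 15.9% at SOX6, 9.82% to 32.3% at SOX5 and 19.3% to 32.5% at SOX4. At SOX2 it ranked at 30.8% to 74.3%, and at SOX17 at 39.6% to 57.9%. The ranks were 25.1% to 45.3% at SOX8, 31.2% to 41.0% at SOX12 and 22.4% to 34.4% at SOX13. A rank is of the strongest peak over all windows of a gene, 11 at SOX6 and 7 at SOX5, and those of SOX6 include the C11orf58 start. SOX5, which had no H3K27ac, ranked above SOX4 by the median over 6 lists (16.6% against 28.3%). For H3K27me3, the ranks were 0.990% to 5.82% at SOX5, 1.32% to 3.96% at SOX6, 1.32% to 21.4% at SOX8, 2.74% to 15.6% at SOX17 and 3.42% to 37.9% at SOX2. For H3K27ac, they were 7.43% to 27.9% at SOX6, 19.7% to 57.8% at SOX4, 16.8% to 31.9% at SOX12 (5 lists) and 30.9% to 48.4% at SOX13 (4 lists). Without siPHF13+TGFβ replicate 1, the upper ends for SOX2 were 53.8% for H3K4me3 and 24.8% for H3K27me3, and that for H3K27me3 at SOX8 was 4.77%.

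H3K27me3 was then followed beyond the windows, with peaks joined over gaps of up to 3 kb into domains. The domain over SOX2 measured 32.4 and 38.8 kb without TGFβ, 36.0 and 34.0 kb with TGFβ, and 23.9 and 32.8 kb with TGFβ after PHF13 depletion. Domains at least as long numbered 577 of 45095 and 2062 of 58962 without TGFβ, 1089 of 46823 and 1383 of 45446 with TGFβ, and 246 of 33398 and 1348 of 45593 with TGFβ after PHF13 depletion. The SOX17 domain varied most, with 19.3 and 70.6 kb, 27.1 and 24.7 kb, and 4.28 and 29.9 kb. That of SOX8 measured 11.4 and 20.1 kb, 23.1 and 22.8 kb, and 3.23 and 22.3 kb. The SOX6 domain, at the second start, was the most even, from 13.1 to 17.0 kb in all 6 lists, and the SOX5 domain ranged from 6.96 to 17.8 kb. Values of siControl and siControl+TGFβ overlapped at SOX2, SOX5 and SOX17. Both siControl+TGFβ domains were longer than both siControl domains at SOX8 and shorter at SOX6, as they were at 5.40% and 8.82% of the 8839 genes tested for H3K27me3. Both siPHF13+TGFβ domains were shorter than both siControl+TGFβ domains at SOX2, SOX5 and SOX8 and longer at SOX6, while those at SOX17 overlapped. Replicate 2 alone lay on the same side at SOX2, SOX5, SOX8 and SOX6. The share over all genes is not given for this comparison, so it is a description only. H3K27me3 covered 105 and 293 Mb of the genome in the siControl lists and 48.6 Mb in siPHF13+TGFβ replicate 1, and the SOX17 domain was longest in siControl replicate 2 and shortest in siPHF13+TGFβ replicate 1. The part of list length in these differences was not tested.

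**Figure D3:**
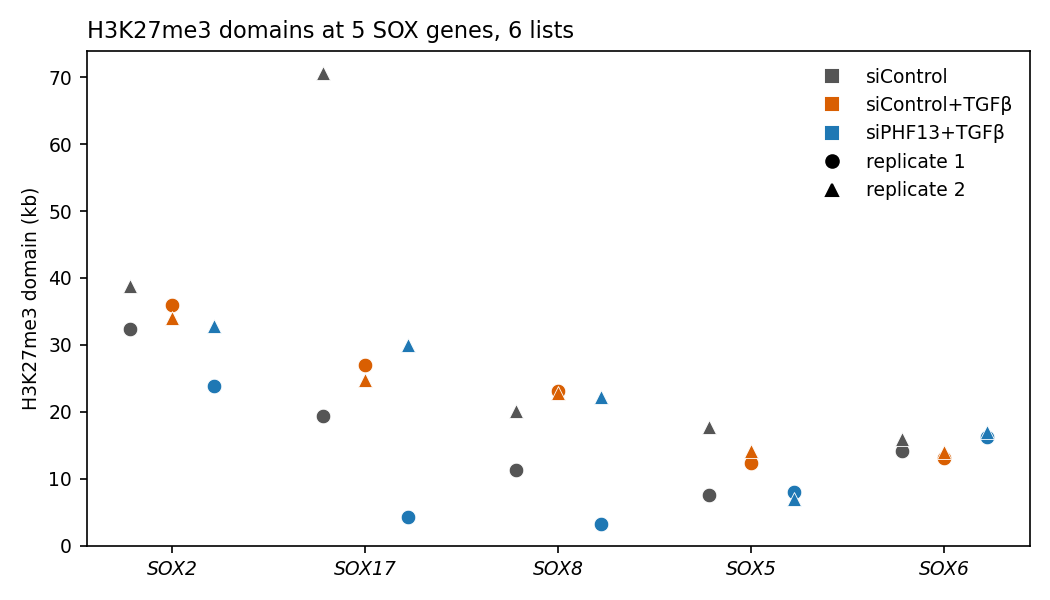
Length of the H3K27me3 domain (kb, y axis) that meets the TSS windows of SOX2, SOX17, SOX8, SOX5 and SOX6 (x axis). Each point is a library, coloured by group, with circles for replicate 1 and triangles for replicate 2. SOX2 stays between 23.9 and 38.8 kb in all 6 lists, while SOX17 ranges from 4.28 to 70.6 kb.

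To examine H3K27ac that the TSS windows do not show, peaks within 100 kb of the starts and outside the windows of all protein-coding TSSs were collected. Distal H3K27ac near SOX4 covered 1209 and 1478 bp without TGFβ, 3752 and 2785 bp with TGFβ, and 827 and 3538 bp with TGFβ after PHF13 depletion. All of the siControl length came from a region that adjoins the upstream edge of the SOX4 window and had peaks in 6 lists. It is the outer part of the block at that edge, whose inner part is counted in the window. Near SOX12, distal H3K27ac spanned 0 and 510, then 1928 and 626, then 0 and 1722 bp. A region 14.6 kb upstream of the SOX12 start, with H3K27ac in 4 lists, also carried H3K4me3 peaks. Near SOX6, distal H3K27ac spanned 0 and 0, then 546 and 217, then 0 and 1084 bp. Both siControl+TGFβ lists were above both siControl lists at SOX4, SOX6 and SOX12, and below them at 0 genes. Of the 10 genes, 6 reached a mean of 100 bp of distal H3K27ac, these 3 among them. Over the 9924 protein-coding genes that did so, the shares were 55.3% and 0.161%. The distal peaks of a list came to 3.43 and 5.91 Mb in siControl and 13.1 and 6.72 Mb in siControl+TGFβ. No member had both siPHF13+TGFβ lists above or below both siControl+TGFβ lists, against 0.0504% and 7.73% of those genes. Near SOX5 and SOX17, no distal peak was present in any list.

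A single region near SOX4 had another pattern. It lay 40.1 kb downstream of the SOX4 start and overlapped no annotated gene. H3K27ac covered 0 bp of it in both siControl lists. It covered 1712 and 1250 bp with TGFβ, and 434 and 1701 bp with TGFβ after PHF13 depletion. The shortest list, with 6004 peaks, held it as 2 peaks, of which the stronger ranked within the top 16.4% of that list. In the other TGFβ lists the region's strongest peak ranked within the top 15.2%, 26.9% and 8.31%. Of 20724 distal H3K27ac regions in the genome, 22 (0.106%) had a peak in all 4 lists of TGFβ-treated cells and in neither siControl list, and 0 further regions near the 10 genes did. Of the 1524 regions with a peak in all 4 lists of TGFβ-treated cells, those 22 were 1.44%. The reverse pattern, both siControl lists and none of the 4, was found at 19 regions. Without siPHF13+TGFβ replicate 1, the pattern is common, with 1481 regions (7.15%), so its rarity rests on that list. The pattern does not depend on which TGFβ-treated group is which. The region was chosen after its values were seen, and no test was made of it.

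**Figure D4:**
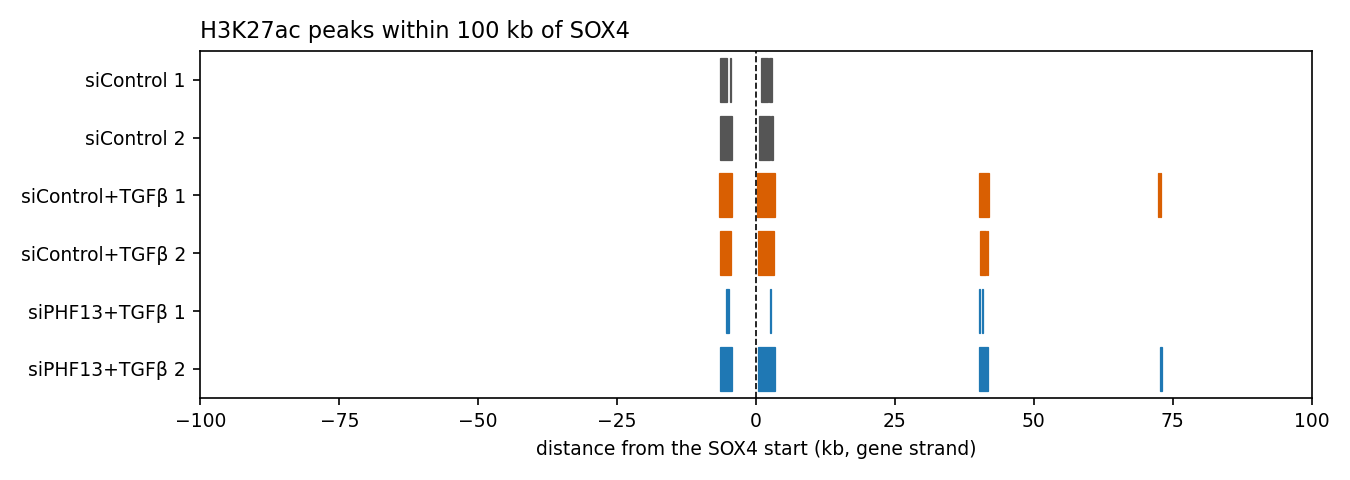
H3K27ac peaks (bars) in each library (rows, coloured by group) within 100 kb of the SOX4 start (x axis, distance in kb along the gene's strand; the dashed line is the start). The bars 40.1 kb downstream are present in the 4 lists of TGFβ-treated cells and in 0 of the 2 siControl lists.

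The effect of TGFβ on the modifications at these genes was examined next. Changes are differences of group means of log2(bp + 100), tested with limma over all protein-coding genes with a mean of at least 100 bp, with Benjamini-Hochberg adjustment, and no member passed. The whole distribution shifted, so changes are read against the median of all tested genes. For H3K4me3, 8 of 10 genes were tested. SOX17 had the largest change, 0.38 ± 0.31 (SE, adjusted p = 0.869 by limma), followed by SOX12 with 0.30 ± 0.29, while the median of 15512 tested genes was 0.13. The median over all 10 members was 0.19, and that over all protein-coding genes was 0.086. Both siControl+TGFβ lists were above both siControl lists at 5 members, all among the 8 tested, SOX2, SOX6, SOX8, SOX13 and SOX17, and below at 0, against 47.5% and 2.03% of tested genes. limma called 9 genes (0.0580%), none of them a SOX member.

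For H3K27ac, 4 of 10 genes were tested. SOX13 changed by 2.34 ± 1.53 (SE), SOX4 by 0.52 ± 1.53, SOX12 by 0.37 ± 1.53 and SOX6 by 0.17 ± 1.53, all with an adjusted p of 0.985 by limma. The median of tested genes was 0.60, above the changes of SOX4, SOX12 and SOX6. The shared error came largely from the siPHF13+TGFβ libraries: with only the 4 libraries of the comparison, the SE was 1.07 for SOX13 (adjusted p = 0.497 by limma), 0.38 for SOX4 (adjusted p = 0.497) and 0.30 for SOX6 (adjusted p = 0.686). The median over all 10 members was 0.087 and over all protein-coding genes 0.33. Both siControl+TGFβ lists were above both siControl lists at SOX4, SOX6 and SOX13, which are 3 of the 4 tested, and below at 0 members, against 56.6% and 0.0793% of tested genes. limma called 0 genes (0%), with 94 higher and 0 lower at an unadjusted p under 0.05. For H3K27me3, 6 of 10 genes were tested, and the changes were 0.00 ± 0.89 at SOX2, 0.21 ± 0.86 at SOX5, −0.14 ± 0.87 at SOX6, 0.41 ± 1.02 at SOX8 and 0.24 ± 1.12 at SOX17 (SE), around a median of tested genes of 0.075. That of SOX10, 1.51 ± 1.20, rests on a single list. The adjusted p of each was 1 by limma. The median over the 10 members and that over all protein-coding genes were both 0. SOX5 was the 1 member of the 6 tested whose siControl+TGFβ lists were both above, and 0 were below, against 5.67% and 6.83% of tested genes. limma called 0 genes (0%), with 27 higher and 122 lower at an unadjusted p under 0.05.

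PHF13 depletion in TGFβ-treated cells was examined in the same way. Both comparisons share the siControl+TGFβ libraries, so they are not independent of each other. For H3K4me3, all 8 tested members had negative changes, from −0.11 ± 0.10 at SOX8 to −0.54 ± 0.31 at SOX17 (SE), around a median of tested genes of −0.22. Adjusted p-values by limma ranged from 0.406 to 0.549. Replicate 1 of siPHF13+TGFβ gave the lowest of the 6 values at 7 of these 8 genes. Without it, the change was −0.22 at SOX17, −0.14 at SOX2, −0.16 at SOX5, −0.145 at SOX13, −0.097 at SOX8, −0.004 at SOX12, 0.155 at SOX4 and 0.025 at SOX6. The median over the 10 members was then −0.051 and that of tested genes −0.089. These are unlike sets, because the 10 members include SOX10 and SOX11, which had no H3K4me3 peak and were not tested. Of the tested members, SOX17, SOX2, SOX5, SOX13 and SOX8 lay below that median of tested genes, and SOX12, SOX4 and SOX6 above it. With all libraries, the median over all 10 members was −0.29 and over all protein-coding genes −0.18. Both siPHF13+TGFβ lists were below both siControl+TGFβ lists at 5 members, all among the 8 tested, SOX2, SOX5, SOX8, SOX13 and SOX17, and above at 0, against 62.2% and 0.264% of tested genes. Replicate 2 alone was below both at the same 5 genes and above both at SOX4 and SOX6, against 63.6% and 10.3%. limma called 10 genes (0.0645%), none of them a SOX member, all of them lower, and without replicate 1 it called 4, of which 2 were higher and 2 lower.

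For H3K27ac, the changes were −1.54 at SOX4, −1.08 at SOX6, −2.16 at SOX12 and −1.97 at SOX13, each ± 1.53 (SE; adjusted p = 0.689 to 0.695 by limma), around a median of tested genes of −1.42. Without siPHF13+TGFβ replicate 1 they were 0.055, 0.18, 0.28 and −0.17, and the median of tested genes was 0.155. The median over all 10 members was −0.33 and over all protein-coding genes −0.89. Both siPHF13+TGFβ lists were below both siControl+TGFβ lists at 0 members and above at 0, against 10.0% and 0.0238% of tested genes. Replicate 2 alone was below both at 0 members and above both at SOX6, against 10.0% and 29.5%. limma called 0 genes (0%), with 0 higher and 9 lower at an unadjusted p under 0.05.

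For H3K27me3, the changes other than that of SOX10 ran from −0.20 ± 0.87 at SOX6 to −1.06 ± 1.12 at SOX17 (SE). They were −0.50 at SOX2, −0.28 at SOX5 and −0.89 at SOX8, and the median of tested genes was −0.91. Adjusted p-values by limma were 0.866 to 0.961. Without siPHF13+TGFβ replicate 1 they were 0.022 at SOX6, 0.18 at SOX17, −0.11 at SOX2, −0.23 at SOX5 and −0.052 at SOX8, and the median of tested genes was 0. The change of SOX10, −1.51 ± 1.20 (SE), again rests on the single siControl+TGFβ list. The median over all 10 members was −0.24 and over all protein-coding genes 0. Both siPHF13+TGFβ lists were below both siControl+TGFβ lists at SOX2 and SOX5, of 6 tested, and above at 0 members, against 28.9% and 1.06% of tested genes. Replicate 2 alone was below both at the same pair and above both at SOX17, against 29.4% and 29.7%. limma called 0 genes (0%), with 9 higher and 178 lower at an unadjusted p under 0.05.

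**Figure D5:**
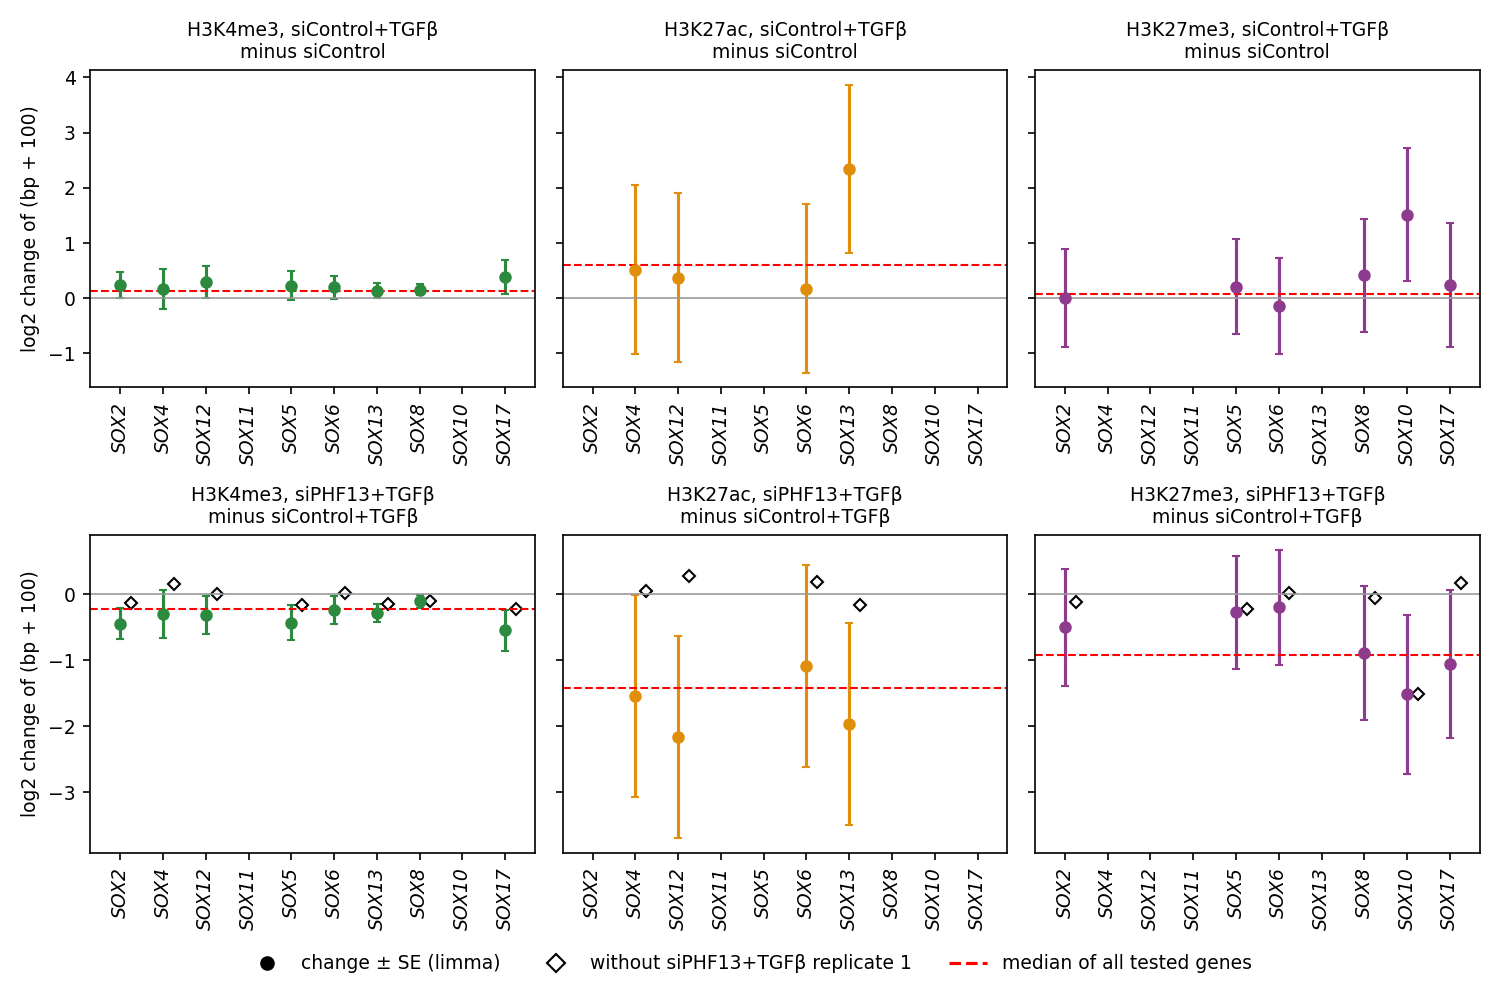
log2 change of (bp + 100) (y axes) at the tested SOX genes (x axes) for each modification, for siControl+TGFβ minus siControl (top) and siPHF13+TGFβ minus siControl+TGFβ (bottom). Filled points are changes with their SE from limma, open diamonds are the values without siPHF13+TGFβ replicate 1, and the dashed line is the median of all tested genes. No change passes the threshold, and at SOX4 the H3K27ac change of −1.54 becomes 0.055 without that library.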

How the data were processed

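The data were ChIP-seq peak lists of H3K4me3, H3K27ac and H3K27me3, 1 list per library, grouped by the labels; 6 input samples were not used. The members and lists were chosen with earlier results of these data known. According to the methods, the authors trimmed reads (Trim Galore 0.4.1), aligned them to hg19 (Bowtie2 2.4.1), removed duplicates (Picard) and called peaks per library against input (MACS2 2.2.7.1), narrow for H3K4me3 and H3K27ac and broad for H3K27me3. Each deposited peak carries a score, a fold enrichment (ratio), a −log10 p-value and a −log10 q-value, as the authors deposited them. The methods give a stricter threshold for narrow peaks, a −log10 q of 3, than the deposited narrow lists show, in which the lowest −log10 q was 1.30; in the broad lists it was 1.00. The lists hold no reads, so the depth is unknown and no interval that needs it is given; p-values measure only the spread between these libraries.

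Covered bp within 5 kb of GENCODE release 44 (GRCh37) TSSs were computed with NumPy 2.4.6 in Python 3.11.15. limma 3.58.1 (R 4.3.3) was fitted to log2(bp + 100) over 6 libraries in 3 groups, genes under a mean of 100 bp left out; both steps were tested on simulated data. An exact permutation test of 2 against 2 libraries cannot go below p = 0.333 and was not used. All members, further SOX genes, neighbours and motifs were named by lists. Alternatives were other windows (2.5 and 1 kb), pseudocounts (10 and 500 bp), list lengths, a −log10 q of at least 3, centring, the filter, the libraries and the replicate block. The sequence of a distal H3K27ac region is not reported here.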

Additional observations from a re-analysis of the deposited data

How the results depend on the processing

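No SOX gene was called in the alternatives that keep all libraries and were read for single genes. The setting without a filter on low values and the block with crossed replicate numbers were not among these. Of 474 recalculated changes of single SOX genes, 404 kept their direction and their side of the threshold, 12 fell below the filter and were not tested, 15 had no direction at 3 decimals in one of the settings, 40 turned their sign and 3 passed the threshold, H3K27ac at SOX4, SOX6 and SOX12 without siPHF13+TGFβ replicate 2, which leaves the 6004-peak list alone in its group and raises the count of called genes to 9945. Peak lists hold no depth, so the lists' unequal length limits every comparison of bp. The 5 genes with H3K4me3 and H3K27me3 in every list were the same 5 under a −log10 q of at least 3, lists of equal length, both smaller windows and without siPHF13+TGFβ replicate 1. The 2 genes with the active state became 0 with lists of equal length and 3, with SOX13, in the smaller windows. These readings were chosen after seeing the data.

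The numbers of genes called for H3K4me3, 9 with TGFβ and 10 with depletion, were 1 and 1 in windows of 1 kb, 4 and 4 with lists of equal length, 19 and 20 at a −log10 q of at least 3, 24 and 29 with a pseudocount of 10 bp, 0 and 0 with 500 bp, and 4 and 25 with the 4 libraries of the comparison. Without a filter on low values, H3K27ac gave 3 and 3 calls and H3K27me3 gave 20 and 3. Leaving out each library in turn gave 0 to 29 calls for H3K4me3 in both comparisons, 0 with TGFβ and 0 to 9945 with depletion for H3K27ac, and 0 for H3K27me3. The cause of these moves was not tested.

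Median changes over the 10 SOX genes moved beyond the spread between libraries as follows. With the labels of the TGFβ groups exchanged, the TGFβ medians were −0.08 for H3K4me3, 0 for H3K27ac and −0.21 for H3K27me3, and H3K4me3 calls were 0. With lists of equal length, both H3K27ac medians were 0. With libraries centred, they were −0.49 and 1.53 for H3K27ac and 1.00 for H3K27me3 with depletion. The H3K27ac depletion median was −0.64 with a pseudocount of 10 bp and −0.10 with 500 bp, and the H3K27me3 depletion median was −0.058 in windows of 1 kb. Without single libraries the medians ran from 0.038 to 0.34 (TGFβ) and −0.56 to −0.051 (depletion) for H3K4me3, 0 to 0.10 and −0.56 to 0 for H3K27ac, and −0.05 to 0.12 and −0.37 to 0 for H3K27me3.

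Single genes changed sign, without a call before or after, as follows. With labels exchanged, the H3K4me3 TGFβ changes were −0.20 at SOX2, −0.12 at SOX4, −0.20 at SOX5, −0.035 at SOX6, −0.018 at SOX12, −0.14 at SOX13 and −0.16 at SOX17. Those of H3K27ac were then −1.02 at SOX4, −0.91 at SOX6 and −1.79 at SOX12, and those of H3K27me3 −0.07 at SOX5, −0.47 at SOX8 and −0.81 at SOX17. In windows of 2.5 kb, SOX4 had −0.072 for H3K4me3 and SOX17 −0.023 for H3K27me3 with TGFβ. With lists of equal length, H3K27ac was −1.33 at SOX12 with TGFβ and 1.02 at SOX4 with depletion. With libraries centred, H3K27ac was −0.058 at SOX4, −0.40 at SOX6 and −0.20 at SOX12 with TGFβ, and 0.32 at SOX4 and 0.78 at SOX6 with depletion. Depletion changes were then 0.11 at SOX8 for H3K4me3, and for H3K27me3 0.74 at SOX2, 0.96 at SOX5, 1.04 at SOX6, 0.35 at SOX8 and 0.18 at SOX17. Without single libraries, H3K4me3 ran from −0.11 to 0.45 at SOX4 and −0.033 to 0.49 at SOX5 with TGFβ, and from −0.75 to 0.155 at SOX4 and −0.50 to 0.025 at SOX6 with depletion. H3K27ac with depletion ran from −3.14 to 0.055 at SOX4, −2.34 to 0.18 at SOX6 and −4.61 to 0.28 at SOX12. H3K27me3 ran from −0.18 to 0.67 at SOX17, −0.31 to 0.017 at SOX6 and −0.10 to 0.92 at SOX8 with TGFβ, and from −2.29 to 0.18 at SOX17 and −0.42 to 0.022 at SOX6 with depletion.

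The correlations of the deviations of libraries with the same replicate number were −0.41 for H3K4me3, −0.24 for H3K27ac and −0.034 for H3K27me3 between siControl and siControl+TGFβ, −0.30, −0.080 and 0.017 between siControl+TGFβ and siPHF13+TGFβ, and 0.52, 0.25 and 0.12 between siControl and siPHF13+TGFβ. Same-numbered libraries deviated together mainly in the last pair of groups. Only the setting with exchanged labels sets these groups against each other, so the numbers were not taken to pair the samples. If the names inside the lists are right, that pair is the TGFβ comparison, and no fit with the replicate block was made for it. With the replicate number as a block, H3K4me3 gave 0 calls in both comparisons and the other modifications also 0, and with the siControl+TGFβ numbers crossed, H3K4me3 gave 3 and 3 and H3K27ac with TGFβ gave 0.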
